A study of Mus musculus with 12 samples.

Results

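The genes described here are 5 signal transducers and activators of transcription (Stat2, Stat3, Stat5a, Stat5b and Stat6) and 4 inhibitors of the suppressor of cytokine signalling family (Socs1, Socs2, Socs3 and Cish), in airway macrophages (AMs) of mice. They were chosen by name and found by matching the Ensembl identifiers of the count table to gene symbols, which gave all 9 genes among the 20551 in the table. All 9 were kept by the filter on low counts, which left 13729 genes. Other genes of either family that are not named here were not analysed.

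Cytokine receptors carry Janus kinases, which are activated when a ligand binds and then phosphorylate STAT proteins, and these move to the nucleus as dimers and drive transcription. SOCS proteins, among them CIS, the product of Cish, can be induced by this signalling, bind receptors or kinases and shut the signal off. STAT activation was not measured here, and what changed the SOCS transcripts with LPS was not tested. In macrophages STAT2 works with IRF9 in the response to type I interferon, STAT3 serves IL-6 and IL-10 family cytokines, STAT5A and STAT5B serve GM-CSF, the growth factor of alveolar macrophages, and STAT6 serves IL-4 and IL-13.

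RNA was sequenced in 12 libraries of 4 groups with 3 libraries each, on a C57BL/6 background and from mice of 6 weeks. The groups were wild-type (WT) AMs in complete DMEM medium, WT AMs with lipopolysaccharide (LPS), and Scnn1b-Tg AMs under the same conditions, where LPS came from Pseudomonas aeruginosa and was given at 100 ng/ml for 12 h. In Scnn1b-Tg mice the promoter of the club cell secretory protein gene drives the beta subunit of the epithelial sodium channel, so the transgene is aimed at airway epithelium and the AMs come from lungs with mucus obstruction. Each pool joined lavages of 3 to 4 animals, and each of 6 pools (WT 16, WT 17 and WT 18, and Tg 17, Tg 18 and Tg 19) gave a medium library and an LPS library. Isolation is described in different ways, as adherent lavage cells in the labels and as AMs sorted by flow cytometry in the study's methods.

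Totals ran from 48.2 to 60.9 M deposited counts per library, and levels below are counts per M of these (CPM), scaled by TMM factors. Markers of AMs, summed over 12 genes, reached 14790 to 15072 CPM (WT) and 16300 to 20093 CPM (Scnn1b-Tg) in medium. In LPS they reached 11206 to 13621 CPM (WT) and 13100 to 18292 CPM (Scnn1b-Tg). Chil3 and Cd68 carried most of the sum, with means of 9971 and 2720 CPM in WT medium and of 7954 and 2827 CPM in WT LPS. Mean levels of Fabp4, Mertk, Ear1, Ear2, Krt79 and Pparg were lower with LPS in both genotypes (Fabp4 at 235 and 25.4 CPM in WT), while those of Marco and Car4 were higher. Siglecf, a defining surface marker of AMs, was also lower with LPS, with means of 115 and 11.1 CPM in WT medium and LPS and of 118 and 6.47 CPM in Scnn1b-Tg. Group means were at most 0.0317 CPM for S100a9 of neutrophils and 0.396 CPM for Cd3e of T cells. The neutrophil list summed to 10.1 to 28.8 CPM, with 3 of its 6 genes under 1 CPM. Its other genes were S100a8, with means of 2.86 and 7.32 CPM in WT medium and LPS and of 4.53 and 11.1 CPM in Scnn1b-Tg, Mmp8, with means of 6.14 and 3.76 CPM in WT and of 11.2 and 5.80 CPM in Scnn1b-Tg, and Cxcr2, with means of 4.01 and 7.50 CPM in WT and Scnn1b-Tg medium and under 1 CPM in LPS. The monocyte, dendritic cell, eosinophil and B cell lists summed to at most 3.57 CPM in each library. Of the 6 T or NK cell markers in the table, 5 had means under 1 CPM and Cd2 carried the sum, which was 143 to 209 CPM in medium and at most 36.8 CPM in LPS. The 6 epithelial markers summed to 80.4 to 118 CPM over the WT libraries and to 35.9 to 73.3 CPM over the Scnn1b-Tg libraries, and the part of these markers in the results was not tested. In RNA of a whole cell population, fewer cells of a type and less RNA per cell cannot be told apart. Libraries of a group come from separate pools of animals, so p-values of the main fit measure the spread between pools. That fit does not use the pairing of the medium and LPS libraries of a pool. In the fit with the pool as a block, given below, p-values measure how the change with LPS varies between pools.

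Promoter sequence was taken from RefSeq on GRCm38.p6, in the 250 bases before each annotated start, which was listed for 8 of the 9 genes (Stat5a and Stat5b have 2 starts each). Socs2 was not in that table. Both strands were searched for TTCNNNGAA, the spacing of a gamma-activated site that STAT dimers can bind, for the wider TTCNNNNGAA, which STAT6 can bind, and for GAAANNGAAA, a core of interferon-stimulated response elements. They were present in 7.015%, 5.851% and 2.968% of the 32817 promoters in the table. The 3 stretches below are shown because they held such a match and belong to the most LPS-responsive inhibitors, Socs3 and Socs1, and to Stat2. Capitals mark the matches.
Socs3 (chr11:117969467-117969566, minus strand): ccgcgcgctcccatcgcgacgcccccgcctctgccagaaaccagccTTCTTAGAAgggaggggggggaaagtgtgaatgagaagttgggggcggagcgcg
Socs1 (chr16:10785567-10785666, minus strand): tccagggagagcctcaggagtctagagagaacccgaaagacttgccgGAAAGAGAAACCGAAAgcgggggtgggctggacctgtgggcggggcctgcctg
Stat2 (chr10:128270248-128270347, plus strand): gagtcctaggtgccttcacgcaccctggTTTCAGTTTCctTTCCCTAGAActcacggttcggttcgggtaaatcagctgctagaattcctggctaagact
Socs3 had the 1 match to TTCNNNGAA among the 8 genes, 154 to 146 bases before the RefSeq start at 117969366. By the GENCODE extent of Socs3 (chr11:117966079-117970047) the printed stretch lies inside the gene. In Socs1 the capitals hold 2 overlapping matches to GAAANNGAAA, from 83 to 68 bases before the start. Stat2 had 1 match to GAAANNGAAA on the other strand, 222 to 213 bases before the start, and 1 to TTCNNNNGAA, 210 to 201 bases before it. A match describes the letters in this window and is not evidence of binding. A looser pattern of NF-kB sites, GGGNNNNNCC, was present in 45.806% of all promoters, and before 8 of the 10 starts of these genes, which is 7 of the 8 genes (not Stat3).

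The first question was how LPS altered these genes in each genotype. Socs3 and Socs1 rose strongly in both, Cish passed the test in WT but in 13 of 21 alternatives only, and every STAT gene differed by less than 1 on the log2 scale. By edgeR's quasi-likelihood test with Benjamini-Hochberg adjustment over all genes, 3 of the 9 genes were higher with LPS in WT, where 15.2% of all genes tested were called higher. None of the 9 was called lower, against 15.7% of all genes. An unadjusted p under 0.05 in either direction was found for 6 of the 9 and for 5506 of all 13729 genes. In Scnn1b-Tg 2 of the 9 were called higher (18.8% of all genes) and none lower (17.8% of all genes). There 4 of the 9 and 6134 of all 13729 genes had an unadjusted p under 0.05. DESeq2 called 5 higher and 0 lower in WT, and 2 higher and 0 lower in Scnn1b-Tg. Shares of all genes called by DESeq2 are not given here, so these counts are not read as a result about the 9 genes.

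Because both libraries of a pool came from the same animals, the fit was repeated with the pool as a block. It called 4 genes higher and 3 lower in WT, where 18% and 18.6% of all genes were called higher and lower, and 3 higher and 3 lower in Scnn1b-Tg, where these shares were 21.4% and 20.8%. The block added calls of STAT genes with small differences, and Cish in WT no longer passed. With the pool as a random effect, whose correlation is estimated (limma voom), 4 genes were called higher and 0 lower in WT (7 of 9 with an unadjusted p under 0.05), and the adjusted p of the 3 lower genes became 0.0709 (Stat3), 0.161 (Stat5b) and 0.0671 (Stat6). In Scnn1b-Tg that fit called 2 genes higher and 2 lower, Stat3 and Stat5b. Shares of all genes, called or with an unadjusted p under 0.05, are not given for the random-effect fit. Its counts are therefore not read as a result about the 9 genes. When each pool was left out in turn, the block called between 4 and 7 of the 9 genes in WT and between 3 and 5 in Scnn1b-Tg, with the fewest without WT 17 or WT 18 in WT and without Tg 18 or Tg 19 in Scnn1b-Tg. For each genotype, 3 of these 6 fits left out a pool of the other genotype, which removes no library of the genotype tested. Counts of such fits given below are therefore weaker checks than their number.

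**Figure D1:**
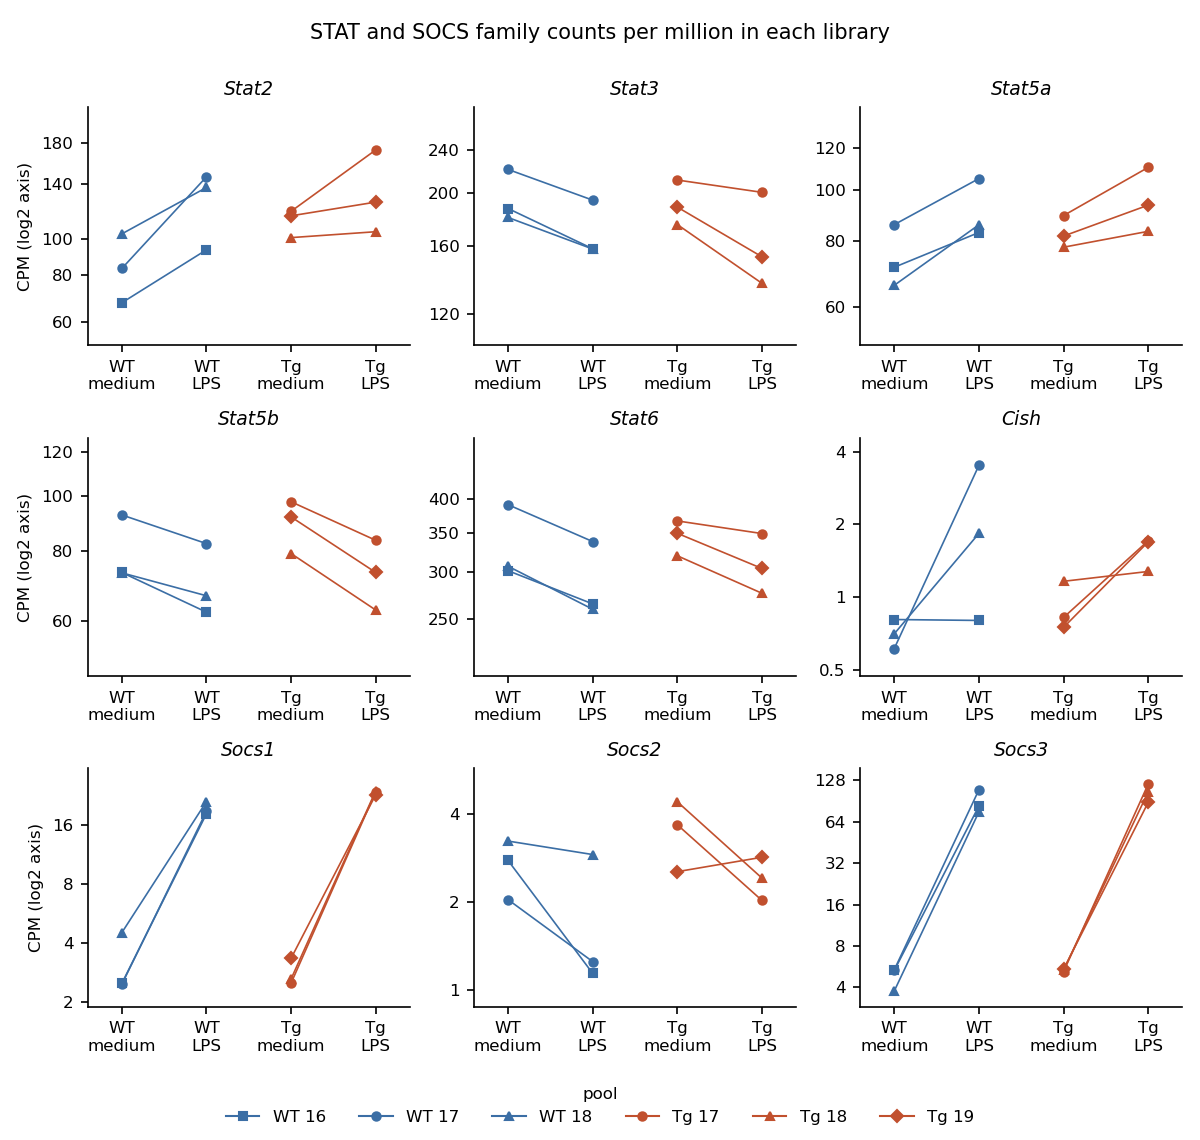
CPM of the 9 genes in each library, on a log2 axis that differs between panels. Lines join the medium and LPS libraries of a pool (WT in blue, Scnn1b-Tg in red). Socs3 goes from 3.76 to 5.40 CPM in medium to 75.6 to 120 CPM in LPS, and Stat3, Stat5b and Stat6 are highest in pools 17 under LPS.

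Socs3 (ENSMUSG00000053113, chr11:117966079-117970047 of mm10, minus strand) encodes the inhibitor that binds the IL-6 receptor subunit gp130 and blocks STAT3 activation. Its level was 5.30, 5.36 and 3.76 CPM in WT medium (pools 16, 17 and 18) and 83.5, 109 and 75.6 CPM in WT LPS. In Scnn1b-Tg it was 5.19, 5.33 and 5.40 CPM in medium (pools 17, 18 and 19) and 120, 106 and 88.5 CPM in LPS. Every LPS library was far above every medium library, and the medium values of 5 pools lay close together with WT 18 below them. Socs3 rose by 4.22 ± 0.15 on the log2 scale in WT (SE, adjusted p = 3.4e-08, edgeR) and by 4.29 ± 0.15 in Scnn1b-Tg (adjusted p = 1.57e-08), an 18.7-fold and a 19.6-fold rise. The rise within single pools ran from 3.97 to 4.53 log2 units.

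Socs1 (ENSMUSG00000038037, chr16:10782240-10785536, minus strand) encodes a direct inhibitor of Janus kinases that limits interferon signalling. It was at 2.49, 2.47 and 4.52 CPM in WT medium and at 18.3, 18.8 and 21.1 CPM in WT LPS. In Scnn1b-Tg the values were 2.50, 2.62 and 3.34 CPM in medium and 23.6, 23.9 and 22.8 CPM in LPS. The medium and LPS libraries did not overlap, and WT 18 was the highest in medium. Socs1 rose by 2.65 ± 0.18 in WT (SE, adjusted p = 1.54e-06, edgeR) and by 3.07 ± 0.18 in Scnn1b-Tg (adjusted p = 3.95e-07). Both inhibitors were called in each of the 21 alternatives run on each comparison.

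Cish (ENSMUSG00000032578, chr9:107296026-107302784, plus strand) encodes an inhibitor that binds receptors using STAT5. Its counts were low, at 0.81, 0.61 and 0.70 CPM in WT medium and 0.80, 3.50 and 1.83 CPM in WT LPS. In Scnn1b-Tg they were 0.82, 1.16 and 0.75 CPM in medium and 1.71, 1.27 and 1.69 CPM in LPS. WT 17 had by far the highest LPS value, and the LPS value of WT 16 lay within the medium range of WT, so these groups overlapped. Cish rose by 1.53 ± 0.45 in WT (SE, adjusted p = 0.0255, edgeR), and in Scnn1b-Tg the difference was 0.77 ± 0.45 (adjusted p = 0.211). With the pool as a block the WT difference no longer passed (1.31 ± 0.48, adjusted p = 0.0669). Nor did it pass without the medium library of WT 16, WT 17 or WT 18, and without the LPS library of WT 18 or of WT 17, where the difference was 0.82 (adjusted p = 0.149). Counting ignored strand, and 11.5% of the exon bases of Cish overlap the antisense genes Gm17040 and Gm17041, so their reads cannot be told apart.

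Socs2 (ENSMUSG00000020027, chr10:95385362-95417180, minus strand) encodes an inhibitor known for limiting growth hormone signalling through STAT5B. It was at 2.78, 2.04 and 3.23 CPM in WT medium and at 1.14, 1.25 and 2.91 CPM in WT LPS. In Scnn1b-Tg it was at 3.68, 4.41 and 2.54 CPM in medium and at 2.02, 2.42 and 2.85 CPM in LPS. It was lower with LPS in 5 of the 6 pools and slightly higher in Tg 19, and the groups overlapped in both genotypes. The difference was -0.67 ± 0.30 in WT (adjusted p = 0.124, edgeR) and -0.58 ± 0.29 in Scnn1b-Tg (adjusted p = 0.157) and did not pass the test. Single libraries moved this: without the LPS library of WT 18 the WT difference was -1.08 (adjusted p = 0.0255, edgeR), and without the medium library of Tg 19 the Scnn1b-Tg difference was -0.85 (adjusted p = 0.0358). With 1 library left out at a time it ran from -1.08 to -0.48 in WT and from -0.85 to -0.29 in Scnn1b-Tg. Of the bases of Socs2 taken as windows of read length, 1.767% are shared with Gm9847.

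**Figure D2:**
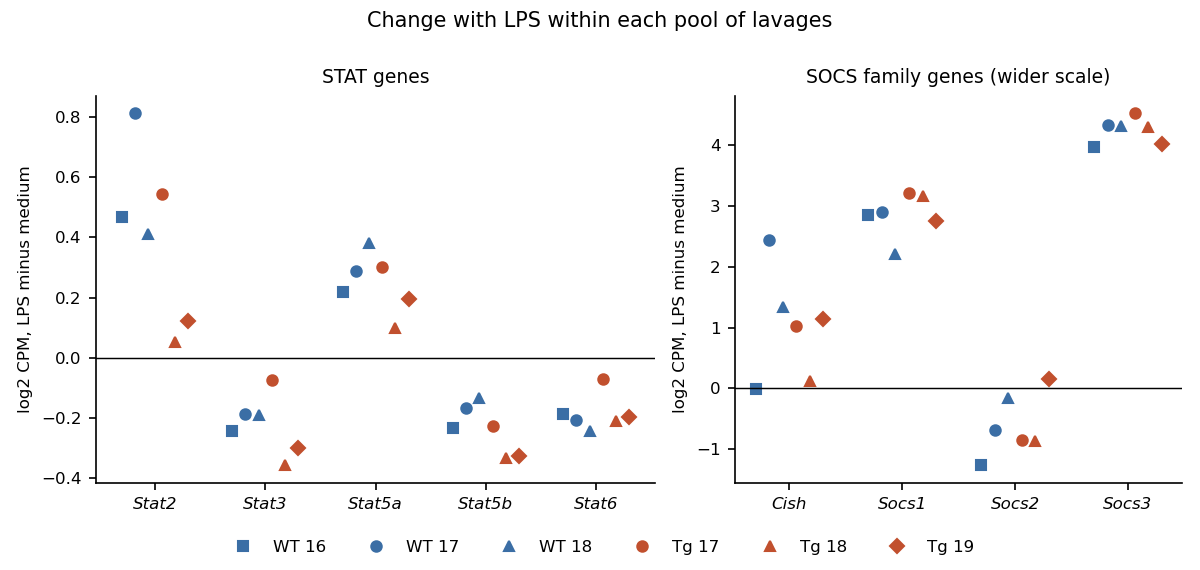
Difference in log2 CPM (prior count 2) between the LPS and the medium library of each pool, for STAT genes and, on a wider scale, SOCS family genes. Each point is 1 pool. Stat2 and Stat5a lie above 0 and Stat3, Stat5b and Stat6 below 0 in all 6 pools, while Cish and Socs2 cross 0.

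Directions within pools were counted next. In all 6 pools 4 of the 9 genes were higher with LPS (Stat2, Stat5a, Socs1 and Socs3), as were 23.9% of all genes tested, and 3 were lower (Stat3, Stat5b and Stat6), as were 25% of all genes tested. With a prior count of 0.5 the number of genes with 1 direction in all pools was again 7.

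Stat3 (ENSMUSG00000004040, chr11:100885098-100939540, minus strand) was at 188, 221 and 181 CPM in WT medium and at 158, 194 and 158 CPM in WT LPS. In Scnn1b-Tg it was at 212, 175 and 189 CPM in medium and at 201, 137 and 153 CPM in LPS. The groups overlapped in both genotypes, with pools 17 high under both conditions. The difference was -0.21 ± 0.11 in WT (adjusted p = 0.182, edgeR) and -0.24 ± 0.11 in Scnn1b-Tg (adjusted p = 0.108). With the pool as a block it was -0.21 ± 0.07 (adjusted p = 0.0461) and -0.25 ± 0.07 (adjusted p = 0.0218), past the threshold in both. With 1 pool of either genotype left out at a time this call held in 1 of 6 fits in WT and in 4 of 6 in Scnn1b-Tg.

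Stat6 (ENSMUSG00000002147, chr10:127642986-127660957, plus strand) was at 302, 391 and 307 CPM in WT medium and at 265, 339 and 260 CPM in WT LPS. In Scnn1b-Tg it was at 367, 320 and 350 CPM in medium and at 349, 276 and 305 CPM in LPS. These groups overlapped too, again with pools 17 on top. The difference was -0.21 ± 0.11 in WT (adjusted p = 0.191, edgeR) and -0.16 ± 0.11 in Scnn1b-Tg (adjusted p = 0.311). With the pool as a block, Stat6 passed the threshold at -0.21 ± 0.05 (adjusted p = 0.0171) and -0.16 ± 0.05 (adjusted p = 0.045). It did so in 3 of 6 fits in WT and in 1 of 6 in Scnn1b-Tg when 1 pool of either genotype was left out.

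Stat5a and Stat5b are closely related neighbours on chromosome 11 (ENSMUSG00000004043, chr11:100859351-100885169, plus strand, and ENSMUSG00000020919, chr11:100780731-100850724, minus strand), and Stat5a shares 72 exon bases with Stat3 on the opposite strand, which the unstranded counts cannot tell apart. Stat5a was at 71.4, 86.0 and 66.0 CPM in WT medium and at 83.1, 105 and 86.0 CPM in WT LPS. In Scnn1b-Tg Stat5a was at 89.5, 78.0 and 81.9 CPM in medium and at 110, 83.6 and 93.7 CPM in LPS. Stat5b was at 73.2, 92.7 and 73.1 CPM in WT medium and at 62.2, 82.4 and 66.5 CPM in WT LPS. In Scnn1b-Tg Stat5b was at 97.8, 79.1 and 91.9 CPM in medium and at 83.5, 62.7 and 73.2 CPM in LPS. Taken singly, each gene overlapped between medium and LPS in both genotypes.

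The paralogues differed in opposite directions. For Stat5a the difference was 0.30 ± 0.11 in WT (adjusted p = 0.0545, edgeR) and 0.20 ± 0.11 in Scnn1b-Tg (adjusted p = 0.171), and with the pool as a block Stat5a rose by 0.30 ± 0.07 (adjusted p = 0.00944) and 0.20 ± 0.07 (adjusted p = 0.0417). For Stat5b the difference was -0.18 ± 0.13 in WT (adjusted p = 0.34, edgeR) and -0.30 ± 0.13 in Scnn1b-Tg (adjusted p = 0.094), and with the pool as a block it was -0.18 ± 0.06 (adjusted p = 0.0425) and -0.30 ± 0.06 (adjusted p = 0.00423). With 1 pool of either genotype left out the block called Stat5a in 6 of 6 fits in WT and 1 of 6 in Scnn1b-Tg. It called Stat5b in 1 of 6 in WT and 6 of 6 in Scnn1b-Tg. Within a library the ratio of Stat5a to Stat5b CPM does not depend on scaling. It was 0.977, 0.929 and 0.904 in WT medium, 0.915, 0.986 and 0.890 in Scnn1b-Tg medium, 1.34, 1.28 and 1.29 in WT LPS, and 1.32, 1.33 and 1.28 in Scnn1b-Tg LPS. All 6 medium libraries were below 1 and all 6 LPS libraries above it, with no overlap. The ratio was looked at after the values were seen, so it is given with no test, and it shows unequal change, not which gene changed. Of the windows of 125 bases, the read length, 2.621% of those of Stat5a and 3.704% of those of Stat5b are shared between the paralogues.

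**Figure D3:**
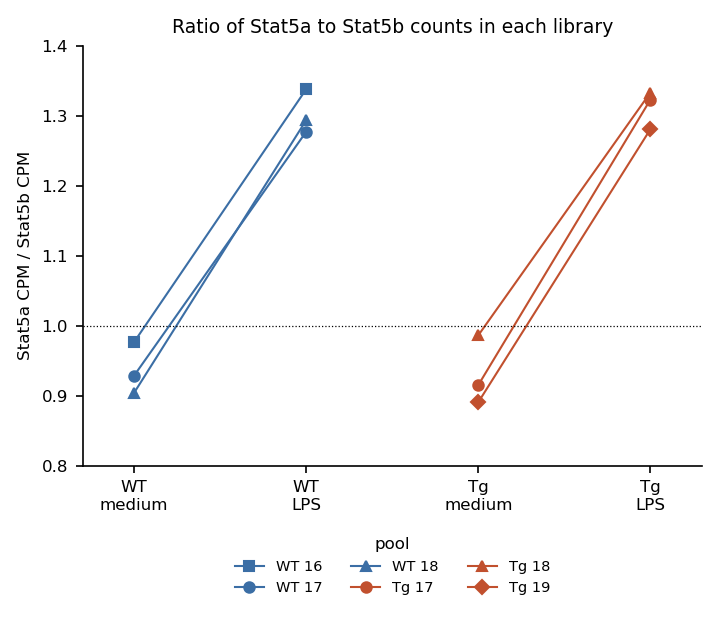
Ratio of Stat5a to Stat5b CPM in each library, with lines joining the medium and LPS libraries of a pool. The ratio is 0.890 to 0.986 in medium and 1.28 to 1.34 in LPS, in both genotypes.

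Stat2 (ENSMUSG00000040033, chr10:128270559-128292849, plus strand) was at 67.4, 83.2 and 103 CPM in WT medium and at 93.3, 146 and 137 CPM in WT LPS. In Scnn1b-Tg it was at 118, 101 and 115 CPM in medium and at 172, 104 and 125 CPM in LPS. The lowest LPS library of WT lay below the highest medium library, and in Scnn1b-Tg Tg 18 and Tg 19 hardly differed between the conditions. The difference was 0.57 ± 0.22 in WT (adjusted p = 0.0784, edgeR) and 0.27 ± 0.22 in Scnn1b-Tg (adjusted p = 0.395). With the pool as a block Stat2 rose in WT by 0.56 ± 0.12 (adjusted p = 0.0067), a call that held in 6 of 6 fits with 1 pool of either genotype left out. The block difference in Scnn1b-Tg was 0.24 ± 0.12 (adjusted p = 0.137). In the main fit the Scnn1b-Tg value was -0.018 without the LPS library of Tg 17, with the medium library of that pool kept. With 1 whole pool left out, the block gave 0.088 to 0.33 in Scnn1b-Tg. Within pools the change was 0.54 in Tg 17, 0.052 in Tg 18 and 0.12 in Tg 19. The difference between genotypes in the LPS response of Stat2 was -0.30 ± 0.31 (adjusted p = 0.989, edgeR).

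STAT levels varied between pools. In 6 of the 6 pools the medium and the LPS library deviated from their group means together over all genes, with a correlation across genes of 0.137 to 0.335. WT and Scnn1b-Tg libraries of the same number, which share a library batch but no animals, also deviated together, with 0.261 and 0.228 (numbers 17 and 18) in LPS and 0.167 and 0.110 in medium. Libraries of pools 17 also stood apart by transcript length. The median deviation of protein-coding genes with a longest transcript of 5 kb or more, minus that of genes under 2 kb, was 0.23 and 0.38 log2 units in the medium and LPS libraries of WT 17 and 0.19 and 0.35 in those of Tg 17, and between -0.21 and -0.015 in the other 8 libraries. The mean deviation of Stat3, Stat5b and Stat6 was 0.22 and 0.23 in WT 17, 0.12 and 0.23 in Tg 17, and between -0.20 and 0.014 in the other 8. The part of length in the STAT results was not tested. Between medium and LPS, the median log2 fold change of genes of 5 kb or more was 0.043 in WT and -0.052 in Scnn1b-Tg, and that of genes under 2 kb was -0.061 and -0.027.

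Levels of different genes were compared per length, as group mean CPM per kb of merged exons. In WT medium the order was Stat6 (75.8 ± 11.4, SD, n = 3), Stat3 (20.6 ± 2.28), Stat5b (14.4 ± 2.04), Stat2 (14.3 ± 3.01), Stat5a (10.4 ± 1.45), Socs3 (1.66 ± 0.31), Socs1 (1.09 ± 0.41), Socs2 (0.281 ± 0.063) and Cish (0.110 ± 0.015). Neighbours whose libraries overlapped were Stat5b and Stat2, Stat2 and Stat5a, and Socs3 and Socs1. In WT LPS Socs3 stood next to Stat6, at 31.0 ± 6.13 against 65.4 ± 10.0 CPM per kb, followed by Stat2 at 21.2 ± 4.77 and Stat3 at 17.9 ± 2.19. Stat5a (12.8 ± 1.68) and Stat5b (12.7 ± 1.92) overlapped there, and Socs1 came next at 6.67 ± 0.51. The order in Scnn1b-Tg LPS was the same down to Socs1, with Socs3 at 36.3 ± 5.51 and Stat6 at 70.5 ± 8.37 CPM per kb. In Scnn1b-Tg medium the STAT genes stood at 78.5 ± 5.40 (Stat6), 20.1 ± 1.92 (Stat3), 18.8 ± 1.59 (Stat2), 16.2 ± 1.73 (Stat5b) and 11.7 ± 0.82 (Stat5a), with Stat2 overlapping both neighbours, and Socs3 at 1.83 ± 0.037 and Socs1 at 0.971 ± 0.157. Libraries of Stat2 and Stat3 overlapped in LPS in both genotypes, as did those of Stat3 and Stat5a in Scnn1b-Tg. Cish and Socs2 were last in LPS, at 0.319 ± 0.213 and 0.185 ± 0.104 in WT LPS and at 0.243 ± 0.038 and 0.255 ± 0.043 in Scnn1b-Tg LPS, with overlapping libraries. With the longest transcript in place of merged exons, the order changed among Stat5b, Stat5a and Stat2 in medium.

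The next question was whether the genotypes differed. In medium 0 of the 9 genes passed edgeR's quasi-likelihood test (0 with an unadjusted p under 0.05, 0 by DESeq2), where 0.262% of all genes were called. Of all 13729 genes, 1784 had an unadjusted p under 0.05 in medium. In LPS 0 of the 9 passed (1 with an unadjusted p under 0.05, 0 by DESeq2), where 0.051% of all genes were called. An unadjusted p under 0.05 was found there for 931 of all 13729 genes. For the difference between genotypes in the LPS response, 0 of the 9 and 0% of all genes were called (0 of the 9 with an unadjusted p under 0.05, 0 by DESeq2). Of all 13729 genes, 795 had an unadjusted p under 0.05 for this difference. Shares of all genes called by DESeq2 are not given here, so its counts are not read as a result. The counts above do not show that the genotypes were alike, and the intervals give what remained possible.

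The 95% intervals of the Scnn1b-Tg against WT difference stayed within 1 log2 unit on either side for 7 of the 9 genes in LPS and for 8 of the 9 in medium. The wide ones were those of Cish in both conditions (-1.37 to 0.62 in LPS, -0.66 to 1.43 in medium) and of Socs2 in LPS (-0.31 to 1.03). Socs3 in LPS had the 1 unadjusted p under 0.05 among the 9 genes, with a difference of 0.32 ± 0.13 (interval 0.032 to 0.61, unadjusted p = 0.0329, adjusted p = 0.677, edgeR). The Socs3 levels overlapped between the genotypes, and within batches the difference was 0.33 in the first and 0.35 in the second. How many of all genes separate by genotype in LPS without overlap is not given here, so a single case is not read as a result. Socs1 in LPS was higher in all 3 Scnn1b-Tg libraries than in the 3 WT libraries (22.8 to 23.9 against 18.3 to 21.1 CPM). Its difference was 0.18 ± 0.17 (interval -0.19 to 0.55, unadjusted p = 0.298, adjusted p = 1.0, edgeR), and 0.35 and 0.15 within batches. Stat2 had opposite signs in the batches in LPS, at 0.56 and -0.26, beside a pooled difference of 0.10 ± 0.22.

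In medium Stat2 had the widest difference of the STAT genes, 0.40 ± 0.23 (interval -0.10 to 0.90, adjusted p = 0.506, edgeR), with 0.66 and 0.064 within batches. Stat5a and Stat5b differed by 0.23 ± 0.11 (adjusted p = 0.408, edgeR) and 0.24 ± 0.13 (adjusted p = 0.497), with 0.19 and 0.27 within batches for Stat5a and 0.25 and 0.22 for Stat5b. Stat3 and Stat6 differed by 0.05 ± 0.11 and 0.12 ± 0.12. The sign was the same in both batches for 7 of the 9 genes in medium and for 5 of the 9 in LPS. Shares of all genes with the same sign are not given here, so these counts are not read as a result about the 9 genes. The first batch held 1 Scnn1b-Tg pool and the second 1 WT pool, so no test was made within a batch. The exact permutation test of the change by pool between genotypes, two-sided over the 6 pools and run on 9 genes, gave p from 0.2 to 0.8 (adjusted 0.675 to 0.8), where the smallest p this design allows is 0.1.

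**Figure D4:**
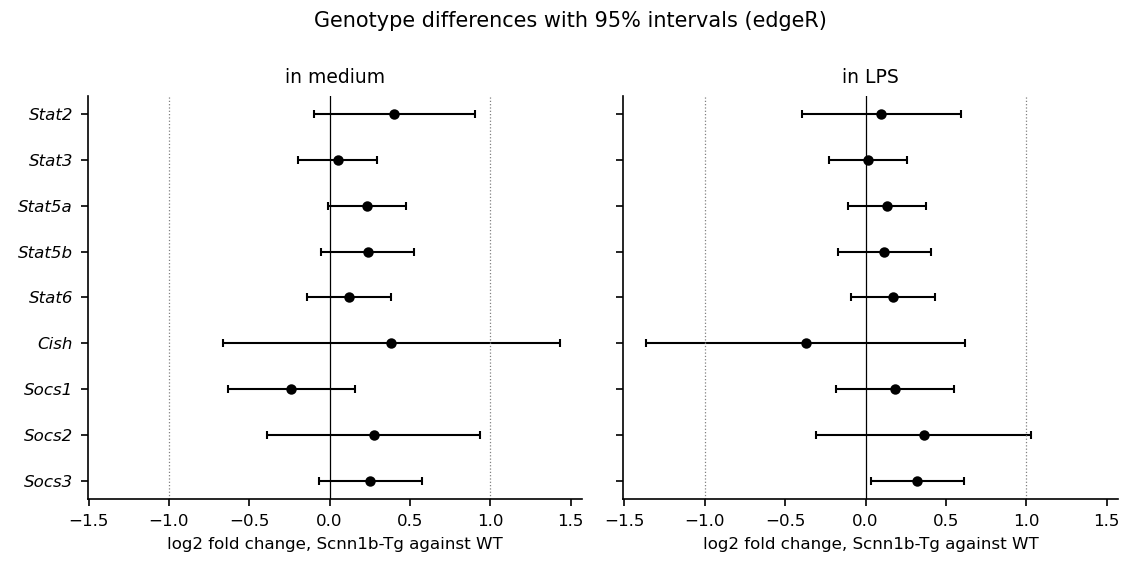
Log2 fold change of Scnn1b-Tg against WT in medium and in LPS for the 9 genes, with 95% intervals from edgeR (3 libraries a group). Dotted lines mark 1 log2 unit. In LPS 7 of the 9 intervals lie between these lines and the interval of Socs3 (0.032 to 0.61) leaves out 0.

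Other genes of the pathway were read from lists by role, all in the same fit. Of the 4 Janus kinases, 2 were called higher with LPS in both genotypes and none lower. Over all genes, 15.2% were called higher and 15.7% lower in WT, and 18.8% and 17.8% in Scnn1b-Tg. Jak2, the kinase of GM-CSF and interferon gamma receptors, rose by 2.04 ± 0.09 in WT and by 2.22 ± 0.09 in Scnn1b-Tg (adjusted p = 6.9e-08 and 3.07e-08, edgeR). Tyk2, a kinase of the type I interferon receptor, rose by 0.54 ± 0.14 in WT and by 0.47 ± 0.14 in Scnn1b-Tg. With the pool as a block Jak1 was also called higher in WT (0.23, adjusted p = 0.0108, edgeR) and Jak3 lower in Scnn1b-Tg (-0.40, adjusted p = 0.0345). The block called 18% of all genes higher in WT and 20.8% lower in Scnn1b-Tg. None of Socs4, Socs5, Socs6 and Socs7, the other SOCS genes tested, was called in either genotype without the block. By edgeR 0 of 4 in WT and 1 of 4 in Scnn1b-Tg had an unadjusted p under 0.05, beside 5506 and 6134 of all 13729 genes. DESeq2 called 0 and 1. Its shares of all genes are not given, here or for the lists below, so its counts are not read as a result. Socs7 in Scnn1b-Tg passed with the block, at 0.38 (adjusted p = 0.0499), where 21.4% of all genes were called higher.

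Of 20 receptor chains tested, 9 were higher and 3 lower with LPS in WT, and 11 were higher and 3 lower in Scnn1b-Tg. For these and the lists that follow, the shares over all genes were 15.2% higher and 15.7% lower in WT and 18.8% and 17.8% in Scnn1b-Tg, so the receptors called lower were near the share of all genes. The largest rises in WT were of Il7r (2.80 ± 0.26), Il4ra (0.87 ± 0.14), a chain of the receptors that activate STAT6, and Il27ra (0.86 ± 0.12), which rose by 2.61 ± 0.25, 0.74 ± 0.14 and 0.50 ± 0.12 in Scnn1b-Tg. In Scnn1b-Tg Il15ra rose by 0.96 ± 0.28 and Ifnar1, a chain of the type I interferon receptor, by 0.87 ± 0.09, beside 0.82 ± 0.28 and 0.70 ± 0.09 in WT. Il6ra, the IL-6 receptor, fell with LPS (-1.87 ± 0.23 in WT and -2.12 ± 0.23 in Scnn1b-Tg), and its mean level went from 24.0 to 6.56 CPM and from 35.0 to 8.03 CPM. Csf3r, the G-CSF receptor, fell as well (-1.21 ± 0.20 and -1.54 ± 0.20), and so did Ifngr1, of the interferon gamma receptor (-0.39 ± 0.07 and -0.36 ± 0.07). The median over the receptors was 0.59 in WT and 0.37 in Scnn1b-Tg, beside 0.0012 and -0.016 over all genes tested.

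Of 17 ligands listed, 15 were in the table and 8 were kept by the filter, and 7 of these 8 were called higher in both genotypes. Since a ligand that is silent in medium passed the filter through its LPS libraries, this count is no support for a direction. Il6 was at 0 to 0.122 CPM in WT medium and 2.26 to 3.55 CPM in WT LPS, and at 0 to 0.0513 and 6.09 to 10.8 CPM in Scnn1b-Tg. Csf3, which encodes G-CSF, had 0 counts in every medium library, and reached 1.23 to 1.67 CPM in WT LPS and 1.16 to 2.19 CPM in Scnn1b-Tg LPS. Il12b was at 0 to 0.179 CPM in WT medium and 1.38 to 1.67 CPM in WT LPS, and at 0.154 to 0.280 and 2.81 to 5.16 CPM in Scnn1b-Tg. No fold is given for these 3 genes because their medium counts were near the floor.

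Of 13 further inhibitors, 6 were higher and 1 lower in WT, and 6 were higher and 0 lower in Scnn1b-Tg. There 8 of 13 had an unadjusted p under 0.05 by edgeR, as had 6134 of all 13729 genes. Usp18, which blocks the type I interferon receptor and is itself an interferon target, rose by 2.80 ± 0.38 in WT and by 2.47 ± 0.37 in Scnn1b-Tg. The phosphatase genes Ptpn1 and Ptpn2 rose by 0.79 ± 0.12 and 0.44 ± 0.07 in WT and by 1.00 ± 0.12 and 0.64 ± 0.07 in Scnn1b-Tg. Ptpn6, which encodes the phosphatase SHP-1, fell by 0.36 ± 0.09 in WT, and in Scnn1b-Tg its difference was -0.19 ± 0.09 (adjusted p = 0.118, edgeR).

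**Figure D5:**
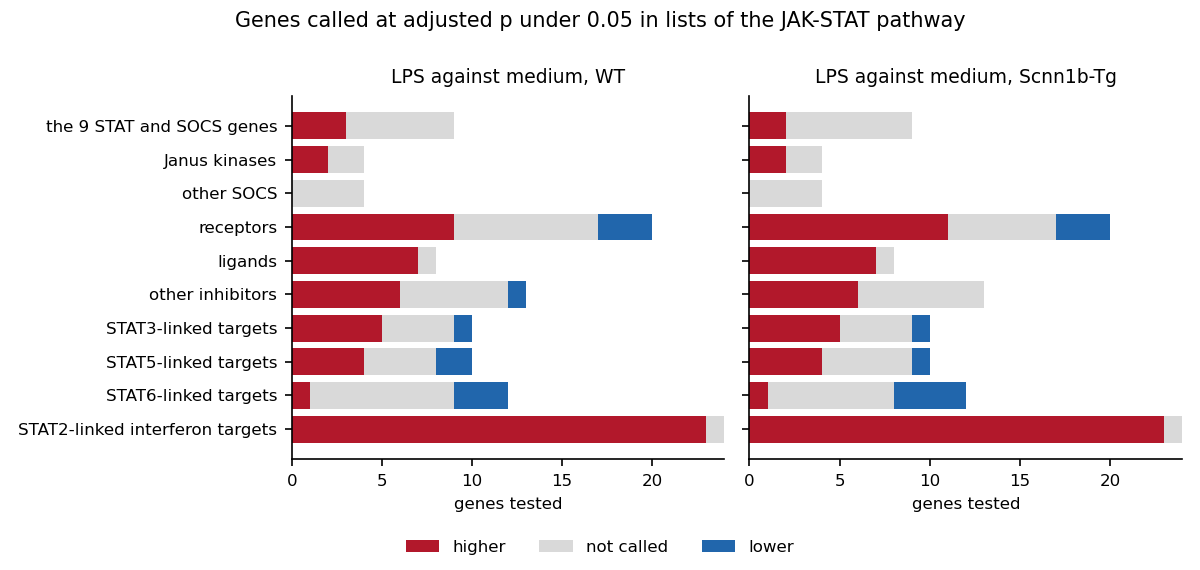
Number of genes tested in each list of the JAK-STAT pathway, split into called higher, not called and called lower with LPS (edgeR, adjusted p under 0.05). In both genotypes 23 of 24 interferon targets are higher, 0 of the 4 other SOCS genes are called, and 3 (WT) or 4 (Scnn1b-Tg) of 12 STAT6-linked genes are lower.

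Called genes linked to STAT2 were all higher with LPS, while the lists linked to STAT3, STAT5 and STAT6 held calls in both directions. Of 24 interferon targets linked to STAT2, 23 were higher and none lower in both genotypes, with a median log2 fold change of 2.22 in WT and 1.84 in Scnn1b-Tg. The exception, Ifi44, had at most 5 counts in each WT library and each medium library. Cxcl10, a chemokine, rose by 4.96 ± 0.29 and 5.71 ± 0.30, Ifit1 by 4.05 ± 0.48 and 4.00 ± 0.47, and Oasl1 by 4.02 ± 0.41 and 3.78 ± 0.40 in WT and Scnn1b-Tg. Mx1, an antiviral GTPase, was at 0.0537 to 0.301 CPM in WT medium and 0.978 to 4.00 CPM in WT LPS, and at 0.571 to 1.18 and 1.98 to 5.65 CPM in Scnn1b-Tg, and no fold is given because WT medium had at most 15 counts. In medium 0 of the 24 were called between genotypes by edgeR, although 15 had an unadjusted p under 0.05, as had 1784 of all 13729 genes. DESeq2 called 3 higher in Scnn1b-Tg (Irf7, Mx1 and Oas2), and the median difference by edgeR was 0.67. The mean log2 CPM of the list was 2.91, 3.16 and 4.38 in WT medium and 4.28, 4.33 and 4.65 in Scnn1b-Tg medium, so WT 18 stood with the Scnn1b-Tg pools. Stat2 had the same order of the WT medium libraries.

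Of 10 genes linked to STAT3, 5 were higher and 1 lower in both genotypes. Il1rn, the antagonist of the IL-1 receptor, rose by 1.83 ± 0.12 in WT and by 2.81 ± 0.13 in Scnn1b-Tg, Pim1, a kinase gene, by 1.57 ± 0.17 and 1.33 ± 0.17, and Bcl3, a nuclear IkB protein, by 1.37 ± 0.11 and 1.85 ± 0.12. Fos fell (-1.25 ± 0.17 and -1.48 ± 0.17). Il1rn was also the 1 gene of these lists called between genotypes by edgeR, where DESeq2 called 8 in medium and, for the difference in LPS response, 2 (Il1rn and Pparg). It was lower in Scnn1b-Tg than in WT medium (-1.18 ± 0.12, adjusted p = 0.00627, edgeR), with a mean level of 79.6 CPM for WT against 35.7 CPM. In LPS the genotype difference of Il1rn was -0.19 ± 0.12 (adjusted p = 0.922), and the difference between the LPS responses was 0.99 ± 0.17 (adjusted p = 0.278). Without the medium library of Tg 17, 0 list genes were called in medium, and without that of WT 18 there were 2.

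Of 10 genes linked to STAT5, 4 were higher and 2 lower in WT, and 4 were higher and 1 lower in Scnn1b-Tg, with 15.7% and 17.8% of all genes called lower. Pim3, a kinase gene, rose by 1.87 ± 0.13 and 1.88 ± 0.13 and Osm, a cytokine of the IL-6 family, by 1.23 ± 0.14 and 0.96 ± 0.14. Id1, which encodes a helix-loop-helix inhibitor, fell (-1.45 ± 0.23 and -1.51 ± 0.23), and so did Pim2 in WT (-0.77 ± 0.20). The difference of Pim2 in Scnn1b-Tg was -0.46 ± 0.19 (adjusted p = 0.0864, edgeR). Of 12 genes linked to STAT6, 1 was higher, 3 lower and 8 not called in WT, and 1 was higher, 4 lower and 7 not called in Scnn1b-Tg, with median log2 fold changes of -0.48 and -0.52. Pparg, a regulator of lipid handling in AMs, fell (-2.08 ± 0.07 in WT and -2.51 ± 0.07 in Scnn1b-Tg), as did Mrc1, the mannose receptor gene (-1.46 ± 0.14 and -1.72 ± 0.14), and Klf4, a transcription factor gene (-1.20 ± 0.14 and -1.71 ± 0.14). Arg1 was also called lower in Scnn1b-Tg (adjusted p = 0.0457, edgeR), at means of 1.12 and 0.157 CPM. Its libraries overlapped there, at 0.0856 to 2.39 CPM in medium and 0.0528 to 0.323 CPM in LPS. No fold is given because these LPS libraries had at most 17 counts. In WT Arg1 was at 0 to 0.342 CPM in medium and 0 to 0.113 CPM in LPS and was not called. Irf4 rose by 1.05 ± 0.25 in WT, and in Scnn1b-Tg its difference was 0.67 ± 0.24 (adjusted p = 0.0553, edgeR). Tgm2 rose by 0.35 ± 0.11 in Scnn1b-Tg, and in WT its difference was 0.26 ± 0.11 (adjusted p = 0.118, edgeR). Pparg is also one of the AM markers above.

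Genes with the pattern most like a member were taken from 8760 protein-coding genes with a mean of at least 5 CPM, by Pearson's r of log2 CPM over the 12 libraries, which share the 4 groups and 6 pools. For Socs3 these were Traf1 (r = 0.997), Jak2 (r = 0.996) and Dcbld2 (r = 0.995), and for Socs1 Arrdc4 (r = 0.994), Slc2a1 (r = 0.994) and Cxcl10 (r = 0.993). For Stat5b they were Ube3b (r = 0.994), Pcif1 (r = 0.979) and Fbxo42 (r = 0.973), and for Stat2 Dync1h1 (r = 0.970), Prrc2a (r = 0.950) and Sp100 (r = 0.943). Jak2 and Cxcl10 are also in the lists above, as a Janus kinase and an interferon target. The closest gene to Socs2 reached an r of 0.892.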

How the data were processed

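Estimated counts per gene, deposited by the authors, came from reads aligned to mm10 with HISAT2 (unstranded) and quantified with StringTie against GENCODE M20. Counts derive from coverage, so a read pair can be worth about 5 counts, and dividing by 5 was an alternative. Symbols and positions came from GENCODE M21 on mm10. The analysis used edgeR 4.0.16 in R 4.3.3: filterByExpr (minimum count 10, total 15), TMM, and quasi-likelihood tests with group and library batch over all 12 libraries, two-sided, adjusted by Benjamini-Hochberg over 13729 genes (threshold 0.05). Alternatives were DESeq2 1.42.0, limma 3.58.1 (voom), other scalings and filters, and leaving out each library in turn. The main fit was checked on simulated counts with no pool or batch effect, for Scnn1b-Tg against WT in LPS only. This check does not cover the comparisons of LPS against medium or the pool block. Totals of 48.2 to 60.9 M deposited counts limit Cish and Socs2 most. The labels name each library's pool of animals, and the libraries of every pool deviated together, so the pool was a block in a second fit. Log2 CPM used a prior count of 2. All 9 members are named. From each list at most the 3 largest called rises and 3 largest falls per LPS comparison are named, with every gene called between genotypes. Members and lists were chosen with earlier results of these data known.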

Additional observations from a re-analysis of the deposited data

How the results depend on the processing

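For LPS against medium in WT, 3 members were called, 5 with DESeq2, 7 with the pool as a replicate block (4 higher, 3 lower), 4 with the pool as a random effect (4 higher, 0 lower) and 2 to 5 with 1 library left out (5 without WT 16 in LPS). In Scnn1b-Tg 2 were called, 6 with the pool as a block, 4 with the pool as a random effect and 2 to 3 with 1 library left out. With 1 pool of either genotype left out, a choice made after seeing the data, the block called 4 to 7 in WT and 3 to 5 in Scnn1b-Tg. Shares of all genes called are given above for the main fit and the pool block over all 12 libraries only. The other counts of members are not read as a result about these genes. List genes called between genotypes in medium numbered 1, 8 with DESeq2 and 0 to 2 with 1 library left out, and for the difference in LPS response 0 and, with DESeq2, 2. No member was called between genotypes, in medium, in LPS or in the LPS response, under the alternatives run on these comparisons. Signs that turned belong to values that passed no test, and the cause was not tested. With the replicate number in place of batch, Scnn1b-Tg against WT in LPS was -0.066 for Stat2, -0.083 for Stat3 and -0.026 for Stat5b, and -0.048 for Stat3 in medium. Numbers 17 and 18 mark no shared animals across genotypes, although these libraries deviated together (r of 0.110 to 0.261). For Stat3 it was -0.0022 with no filter and -0.058 with no batch term in LPS, and -0.034 with no batch term in medium. With 1 library left out, log2 values ran from -0.018 to 0.43 for Stat2 with LPS in Scnn1b-Tg. Between genotypes in LPS they ran from -0.24 to 0.24 (Stat2), -0.11 to 0.084 (Stat3), -0.020 to 0.25 (Socs1) and -0.71 to 0.25 (Cish). In medium they ran from -0.016 to 0.092 (Stat3), -0.33 to 0.076 (Socs1) and -0.083 to 0.51 (Socs2). For the difference between genotypes in the LPS response they ran from -0.13 to 0.045 (Stat3), -0.044 to 0.16 (Stat6), -0.17 to 0.52 (Socs2) and -0.071 to 0.20 (Socs3). Over all single-gene values, 861 kept direction and side of the threshold, 26 newly passed it, 8 no longer passed it and 31 turned sign. Low counts limit Cish and Socs2, whose intervals are the widest.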
